A study of Homo sapiens with 6 samples.

Results

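The genes described here are 98 developmental transcription factors of 8529 genes measured by RNA sequencing in SW480 cells, a line established from a human colorectal adenocarcinoma. They were taken by symbol and not by level: MSX1, MSX2, and every gene whose symbol names a HOX, CDX, SOX, FOX, KLF, GATA, TBX, PAX, LHX, NKX or DLX factor, or a homeobox gene of the sine oculis type such as SIX4 and SIX5, 13 families in all. Wild-type SW480 cells were cultured for 72 h on hydrogels with a stiffness of 2 kPa (soft) or 25 kPa (stiff), and the labels name no drug, knockdown or other agent in either group. Each stiffness had 3 libraries, numbered as replicates 1, 2 and 3, and values are given below in that order. All libraries came from 1 line on 1 kind of gel, and the labels do not say whether the 3 libraries came from separate passages, so the p-values measure the spread between these libraries. The comparison asks which of these factors differ in RNA level between the stiff and the soft substrate.

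Transcription factors of these families set the identity of cells and tissues in the embryo, and many stay active in adult epithelium and in tumours. MSX1 and MSX2 are homeobox repressors that respond to bone morphogenetic protein (BMP) signals, the HOX genes give cells their position along the body axis, and CDX1 and CDX2 specify intestinal epithelium. SOX proteins bind DNA through an HMG box and FOX proteins through a forkhead domain, while KLF factors use zinc fingers, and members of each family control stem cells, the cell cycle and differentiation in the gut.

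MSX1 rose on the stiff substrate and was the only 1 of the 98 factors past the threshold, an adjusted p under 0.05 by limma with adjustment over all 8529 genes. Over all genes, 10 passed, which is 0.117% of those tested, with 6 higher at 25 kPa (0.0703%) and 4 lower (0.0469%). The study reported many more altered genes from these libraries with DESeq2, a test on read counts that was not run here. The other 97 factors did not pass, and the smallest adjusted p among them was 0.224 by limma, for CDX2. The fits behind these values used log2(FPKM + 1), where FPKM is the number of fragments per kilobase of transcript, scaled by sequencing depth, so that a log2 fold change understates the change of a gene with a low FPKM.

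The homeobox encodes the homeodomain, the part of the protein that contacts DNA. The homeoboxes of MSX1, of its paralog MSX2 and of HOXB7 and CDX2, which had an unadjusted p under 0.05, are shown so that the factor that rose can be set beside those that did not pass. They were read from the GENCODE 29 transcripts on GRCh38, each is 180 bases long, 5′ to 3′ in the sense of the mRNA, and capitals mark the 6 codons at the core of the recognition helix, by which the homeobox was placed.
MSX1: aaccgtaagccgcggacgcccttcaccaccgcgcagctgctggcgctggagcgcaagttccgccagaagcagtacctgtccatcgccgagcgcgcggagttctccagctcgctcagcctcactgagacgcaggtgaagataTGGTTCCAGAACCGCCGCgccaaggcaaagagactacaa
MSX2: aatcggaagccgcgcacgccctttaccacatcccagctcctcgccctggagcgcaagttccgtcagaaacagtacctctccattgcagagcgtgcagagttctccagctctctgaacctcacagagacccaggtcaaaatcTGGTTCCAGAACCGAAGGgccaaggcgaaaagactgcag
HOXB7: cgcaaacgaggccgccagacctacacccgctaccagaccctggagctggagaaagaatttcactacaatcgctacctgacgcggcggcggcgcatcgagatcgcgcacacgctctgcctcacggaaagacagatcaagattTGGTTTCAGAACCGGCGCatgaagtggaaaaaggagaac
CDX2: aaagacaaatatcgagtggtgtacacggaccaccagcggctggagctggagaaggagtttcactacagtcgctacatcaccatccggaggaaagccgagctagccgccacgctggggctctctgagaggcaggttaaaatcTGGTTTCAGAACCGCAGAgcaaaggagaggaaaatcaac
That of MSX1 lies in exon 2 at chr4:4862745-4862924 on the plus strand, and that of MSX2 in exon 2 at chr5:174729203-174729382 on the plus strand. That of HOXB7 lies in exon 2 at chr17:48607908-48608087 on the minus strand, and that of CDX2 is split over exons 2 and 3 on the minus strand of chromosome 13. The homeobox of MSX2 matched that of MSX1 at 148 of 180 bases (82.2%), against 59.4% for CDX2 and 55.6% for HOXB7. Of the 44 factors in which a homeobox was found, MSX2 was the closest to MSX1, followed by DLX3 with 68.9%.

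MSX1, a homeobox repressor that holds progenitor cells in an undifferentiated state, was measured at 37.39, 42.98 and 39.95 FPKM in the 2 kPa libraries and at 137.71, 155.9 and 117.67 FPKM in the 25 kPa libraries. Every stiff library lay far above every soft one, and the lowest stiff value was well clear of the highest soft value. The mean rose from 40.1 ± 2.80 FPKM (SD, n = 3) to 137 ± 19.1 FPKM (SD, n = 3), which is 3.42-fold. On the log2(FPKM + 1) scale the difference was 1.74 (SE 0.13, 95% interval 1.45 to 2.04, limma adjusted p = 0.00121), rank 3 by p among all genes. In the 15 alternative fits the difference stayed between 1.62 and 1.85 and the adjusted p between 2.41e-04 and 0.0285. The study itself had picked out MSX1 from these libraries, so its rise here is not independent evidence. In RNA from whole cultures, more cells that express MSX1 and more MSX1 RNA per cell cannot be told apart.

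MSX1 also changed its place among the factors. Its share of the summed FPKM of all 98 was 10.4%, 8.35% and 11.8% in the soft libraries and 27.2%, 31.1% and 25.2% in the stiff libraries. It ranked below HOXB7 in soft replicates 1 and 3 and above every other factor in soft replicate 2 and in all stiff libraries. Without MSX1 the remaining 97 factors summed to 321, 471 and 299.9 FPKM at 2 kPa and to 368, 346 and 350.04 FPKM at 25 kPa, so that the stiff libraries lay between the soft ones.

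MSX2, the nearest paralog of MSX1 and like it a target of BMP signals, was far lower and showed no such separation. Its values were 0.07, 1.03 and 0.68 FPKM at 2 kPa and 0.82, 0.13 and 0.88 FPKM at 25 kPa. High and low libraries occurred in both groups, and the groups overlapped over nearly their whole range. The log2 difference was 0.03 (95% interval −0.58 to 0.64, limma adjusted p = 0.986), an interval that lies below the one of MSX1 and is too wide to show that MSX2 stayed level.

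**Figure D1:**
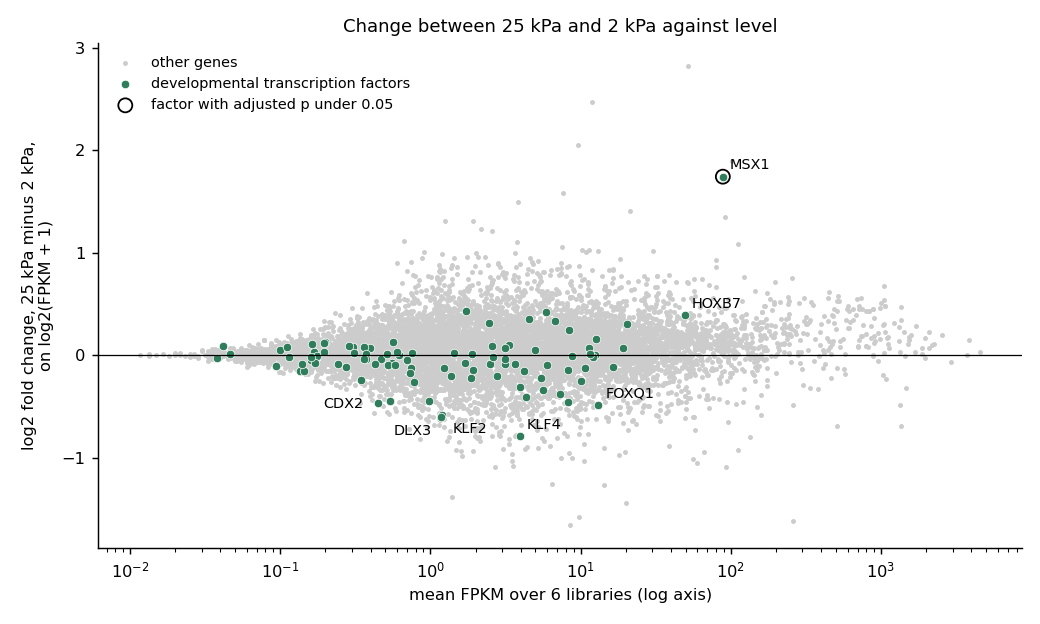
Each point is a gene (96 of the 98 factors in green, other genes in grey), with its mean FPKM over the 6 libraries on the x axis (log axis) and its log2 fold change between 25 kPa and 2 kPa on the y axis. MSX1 stands at 1.74, apart from the other developmental transcription factors, and 92 of the 96 factors shown lie within 0.5 of 0.

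Upstream sequences are shown for MSX1, for MSX2, its paralog that did not pass, and for CDX2, the factor with the next smallest p. They are the 250 bases before the RefSeq start site on GRCh38.p14, 5′ to 3′ in the direction of the gene, and capitals mark matches on either strand to the motifs searched: GGAATG (TEAD), CTTTGA (TCF/LEF), TGANTCA (AP-1), TAATTG (homeodomain), GGGCGG (GC box), CCAAT (bound by NF-Y), and TATAAA for the core promoter box.
MSX1: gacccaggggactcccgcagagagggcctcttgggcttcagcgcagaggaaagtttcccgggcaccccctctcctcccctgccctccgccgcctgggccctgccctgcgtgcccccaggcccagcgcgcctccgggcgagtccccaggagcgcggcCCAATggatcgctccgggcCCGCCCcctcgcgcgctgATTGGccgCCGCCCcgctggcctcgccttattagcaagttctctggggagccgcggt
MSX2: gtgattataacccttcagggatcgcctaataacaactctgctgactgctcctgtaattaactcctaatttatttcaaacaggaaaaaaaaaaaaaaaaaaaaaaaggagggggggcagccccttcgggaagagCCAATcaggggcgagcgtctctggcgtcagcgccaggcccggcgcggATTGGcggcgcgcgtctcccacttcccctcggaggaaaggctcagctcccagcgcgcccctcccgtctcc
CDX2: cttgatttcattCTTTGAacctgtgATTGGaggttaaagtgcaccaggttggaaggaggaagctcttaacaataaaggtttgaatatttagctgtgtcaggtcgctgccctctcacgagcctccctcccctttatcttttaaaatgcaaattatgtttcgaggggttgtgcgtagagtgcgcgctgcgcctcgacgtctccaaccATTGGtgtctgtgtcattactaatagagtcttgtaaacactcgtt
The windows are chr4:4859415-4859664 on the plus strand for MSX1, chr5:174724332-174724581 on the plus strand for MSX2 and chr13:27969316-27969565 on the minus strand for CDX2. That of MSX1 had a GC content of 74.0% with 2 GC boxes and 2 CCAAT matches, that of MSX2 55.6% with 2 CCAAT matches, and that of CDX2 45.2% with 1 TCF/LEF and 2 CCAAT matches. In windows that also held the 50 bases after the start, which 64 of the 98 factors had in the RefSeq table, a CCAAT match occurred in 57.8% of the factors, 36.7% of the genes measured and 35.7% of all 27305 promoters. A GC box occurred in 68.8% of the factors, 71.1% of the genes measured and 44.6% of all promoters, and a TEAD match in 14.1%, 10.8% and 14.0%. For the other motifs, the shares among the factors, the genes measured and all promoters were 9.38%, 8.57% and 13.1% (TCF/LEF), 4.69%, 4.48% and 7.76% (AP-1), 4.69%, 3.78% and 7.58% (homeodomain), and 10.9%, 6.00% and 11.95% (core promoter box). A match describes the letters and does not show that a factor binds there.

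At an unadjusted p under 0.05, 5 of the 98 factors (5.10%) stood out, against 10.2% of all genes. Those higher at 25 kPa included MSX1 and HOXB7 (3 factors, with 6.96% of all genes in that direction), and those lower were CDX2 and FOXQ1 (2 factors, with 3.19% of all genes). The libraries of the groups did not overlap for 11 factors (11.2%), against 16% of all genes. Of these 11, 4 were higher at 25 kPa, MSX1, HOXB7 and NKX2-3 among them (all genes 11.2%), and DLX3, FOXQ1, CDX2, KLF13, SIX5, HOXD9 and FOXF1 were lower (all genes 4.78%). A two-sided exact permutation test of 3 libraries against 3 cannot go below p = 0.1, which these 11 reach, so that the fit over all genes carries the test. In all, 41 factors had a positive and 57 a negative log2 difference, with a median of −0.03, whereas 59.6% of all genes were positive and their median was 0.05. The split depended on the scaling, with 26 positive once each library was scaled to the same total, 29 under quantile normalisation and 28 under median centring, where 45.6%, 50.7% and 49.1% of all genes were positive. It turned the other way in 2 further fits, with 61 positive and 37 negative without replicate 2 of the 2 kPa group and 54 and 44 after a trend over GC content was removed, against 65.7% and 60.5% of all genes positive.

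Most of the factors were expressed at a low level. The mean over the 6 libraries was at least 1 FPKM for 50 of them and at least 10 FPKM for 13, and 5 were under 0.1 FPKM. Their median level was 1.15 FPKM, against 2.61 FPKM over all genes. The 95% interval of a factor's log2 difference, taken before adjustment, reached a median of 0.41 to either side. Passing the threshold over all genes took more, and CDX2 at −0.47, with an SE of 0.12, did not pass. For a typical factor, a difference larger than 0.41 could thus also have been missed.

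**Figure D2:**
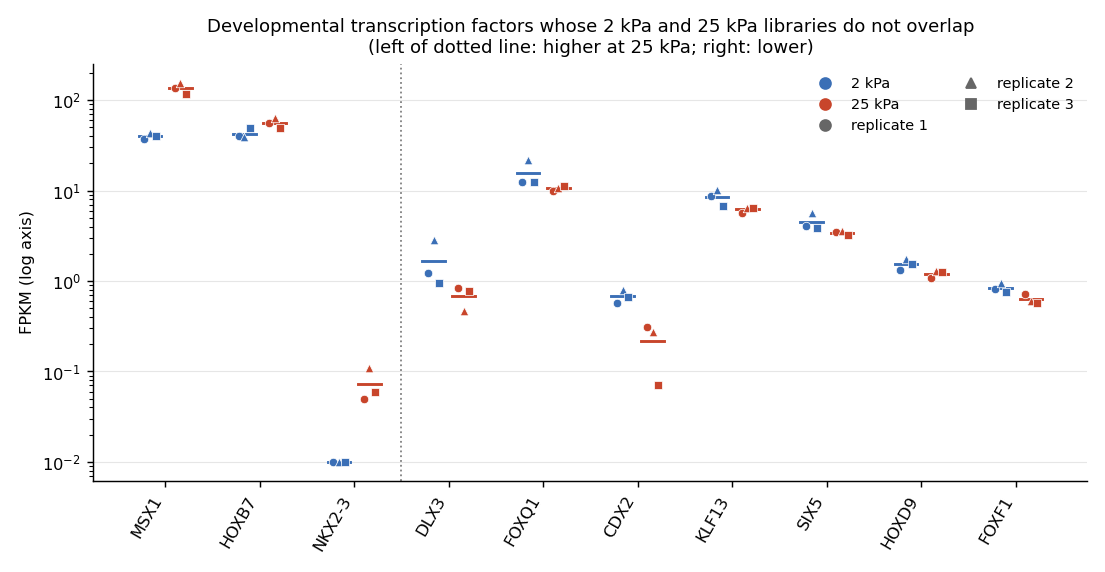
FPKM on a log axis for 10 of the 11 factors whose 2 kPa libraries (blue) and 25 kPa libraries (red) do not overlap, with 1 symbol per replicate and a bar at the group mean. MSX1, HOXB7 and NKX2-3 are higher at 25 kPa and the other 7 lower, and MSX1 goes from 37.39 to 42.98 FPKM at 2 kPa to between 117.67 and 155.9 FPKM at 25 kPa.

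The HOX family had 28 measured genes, the most of any family, and their summed FPKM came mainly from the HOXB cluster. HOX genes that were not measured, such as HOXB3, are not in the sums. HOXB genes on chromosome 17 (8 genes) held 73.8% to 77.5% of the summed HOX FPKM in every library, HOXA genes on chromosome 7 (9 genes) 16.0% to 19.1%, and HOXC and HOXD genes on chromosomes 12 and 2 (8 and 3 genes) the rest. The 2 kPa libraries had a sum over all 28 of 162 ± 24.1 FPKM (SD, n = 3) and the 25 kPa libraries one of 179 ± 10.9 FPKM (SD, n = 3), with soft replicate 2 (189 FPKM) inside the stiff range of 171 to 191 FPKM. By cluster, the sums were 123 ± 15.2 and 138 ± 7.94 FPKM (SD, n = 3) for HOXB, 28.1 ± 6.95 and 30.9 ± 3.09 for HOXA, 8.53 ± 1.92 and 7.96 ± 1.25 for HOXC, and 2.41 ± 0.318 and 1.95 ± 0.163 for HOXD. Only the HOXD sums kept the groups apart, at 2.23 to 2.78 FPKM against 1.76 to 2.06 FPKM, and no test was made on the sums.

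HOXB7, a HOX gene of the central paralog groups and next to MSX1 in level among the 98 factors, was measured at 39.66, 38.96 and 48.96 FPKM at 2 kPa and at 55.77, 63.0 and 49.59 FPKM at 25 kPa. The groups were apart by a narrow margin, with soft replicate 3 just under stiff replicate 3. Its mean was 42.5 ± 5.58 FPKM (SD, n = 3) against 56.1 ± 6.71 FPKM (SD, n = 3), a log2 difference of 0.39 (SE 0.14) with limma adjusted p = 0.360 (0.0184 before adjustment). HOXD9, a posterior HOX gene, was measured at 1.34, 1.77 and 1.54 FPKM at 2 kPa and at 1.08, 1.29 and 1.25 FPKM at 25 kPa (log2 difference −0.21, limma adjusted p = 0.788). Its soft libraries were all higher, although the gap between 1.29 and 1.34 FPKM was small.

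The other abundant HOX genes were all of the HOXB cluster, and their groups overlapped. HOXB8 was measured at 14.68, 29.09 and 13.68 FPKM at 2 kPa and at 19.58, 18.55 and 19.01 FPKM at 25 kPa. Soft replicate 2 lay above the 3 stiff libraries and the other soft libraries below them, and the log2 difference was 0.07 (limma adjusted p = 0.958). HOXB2 was measured at 16.78, 16.19 and 17.98 FPKM at 2 kPa and at 12.78, 18.7 and 15.85 FPKM at 25 kPa, a log2 difference of −0.11. HOXB6 was measured at 10.93, 11.18 and 13.86 FPKM at 2 kPa and at 11.62, 14.57 and 14.18 FPKM at 25 kPa, a log2 difference of 0.16. In both genes the ranges crossed. HOXB9 was measured at 10.61, 16.75 and 9.62 FPKM at 2 kPa and at 11.97, 11.24 and 12.21 FPKM at 25 kPa, a log2 difference of −0.02. HOXB4 was measured at 8.81, 13.84 and 11.71 FPKM at 2 kPa and at 9.46, 11.66 and 13.39 FPKM at 25 kPa, a log2 difference of 0.01. The limma adjusted p of these 5 genes ranged from 0.810 for HOXB6 to 0.988 for HOXB4.

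Over the family, 14 HOX genes had a positive and 14 a negative log2 difference, with a median of −0.01, and 2 of the 28 (7.14%) reached an unadjusted p under 0.05, against 10.2% of all genes. With each library scaled to the same total 6 were positive and 22 negative, and with quantile normalisation 7 and 21, so that the balance of the family rests on the scaling. Without soft replicate 2, 19 were positive and 5 reached an unadjusted p under 0.05, HOXB7, HOXA9, HOXB5 and HOXB8 among them, in a fit where 11.3% of all genes did. HOXA9 was then 0.59 higher on the log2 scale, HOXB5 0.70 and HOXB8 0.40, with limma adjusted p = 0.425, 0.391 and 0.301. HOXC4, HOXC5 and HOXC6 overlap each other in RefSeq, and HOXA9 and HOXA10 share a read-through gene, so reads could have been divided between them.

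**Figure D3:**
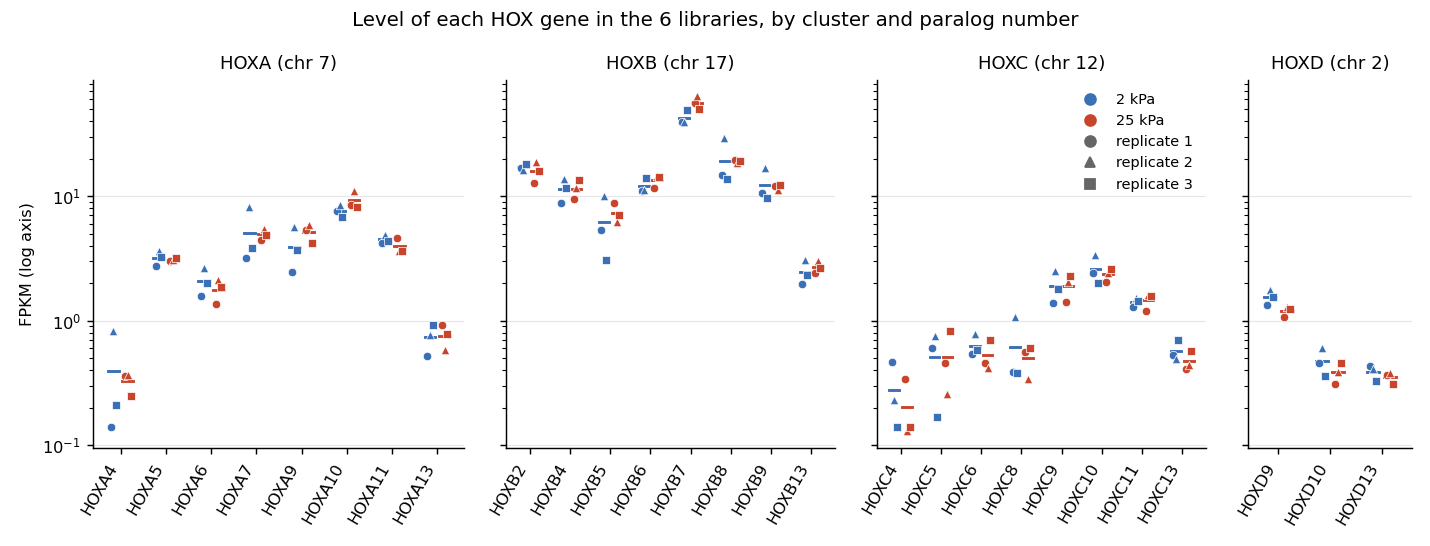
FPKM on a log axis of 27 of the 28 HOX genes in the 6 libraries, by cluster and in order of paralog number, with 2 kPa in blue, 25 kPa in red, 1 symbol per replicate and a bar at the group mean. Of the 8 HOXB genes 6 have means of at least 10 FPKM, HOXB7 being the highest, while the HOXC and HOXD genes have means over the 6 libraries of at most 2.48 FPKM.

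CDX2, the master regulator of intestinal epithelium and a tumour suppressor in the colon, was low in SW480 cells. Its values were lower on the stiff substrate, but the difference did not pass the threshold. Its values were 0.57, 0.79 and 0.67 FPKM at 2 kPa and 0.31, 0.27 and 0.07 FPKM at 25 kPa. Every stiff library was below every soft one, and stiff replicate 3 was the lowest. The mean was 0.677 ± 0.110 FPKM (SD, n = 3) against 0.217 ± 0.129 FPKM (SD, n = 3), which is 3.12-fold lower, and the log2 difference was −0.47 (SE 0.12, limma adjusted p = 0.224, and 0.00370 before adjustment). In the 14 alternative fits that kept a gene of this level, the unadjusted p stayed at 0.0247 or less and the adjusted p at 0.203 or more. CDX1, its paralog, was measured at 0.10, 0.24 and 0.06 FPKM at 2 kPa and at 0.07, 0.04 and 0.05 FPKM at 25 kPa, where the groups overlapped (limma adjusted p = 0.713). Of the genes known to lie under CDX, GATA and HNF factors in the intestine, 5 of the 27 listed were measured and 0 passed, with a median log2 difference of −0.02. All 5 were negative, but 2 of them were near 0.05 FPKM and 2 turned positive without soft replicate 2, without stiff replicate 1 or 3, or after a GC trend was removed. CLDN15, a claudin of the intestinal tight junction, had the smallest p of the 5, at 2.47 ± 0.164 FPKM (SD, n = 3) against 1.41 ± 0.442 FPKM (limma adjusted p = 0.453). The differentiation keratin KRT20 was at 0.02 to 0.10 FPKM in every library.

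Of the 2 GATA factors, GATA2, a regulator of blood progenitors, was measured at 10.23, 16.23 and 7.37 FPKM at 2 kPa and at 8.99, 8.25 and 9.45 FPKM at 25 kPa. The soft libraries spread on both sides of the stiff ones, and the log2 difference was −0.25 (limma adjusted p = 0.813). It turned to 0.03 without soft replicate 2 and was −0.49 without soft replicate 3 (limma adjusted p = 0.968 and 0.550). GATA6, a factor of intestinal and other endoderm, was at 0.01 to 0.08 FPKM in all libraries.

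Of the 10 SOX genes, SOX9 was the most abundant, a factor of intestinal crypt stem cells. It was measured at 11.61, 36.71 and 9.88 FPKM at 2 kPa and at 27.07, 13.7 and 22.59 FPKM at 25 kPa. Soft replicate 2 was the highest of the 6 libraries, while the other soft libraries were the lowest of all. The log2 difference was 0.30 (95% interval −0.70 to 1.31, limma adjusted p = 0.887), and without soft replicate 2 it was 0.87, with limma adjusted p = 0.301 (0.0101 before adjustment). SOX4, a factor of progenitor cells, was at 6.69 to 11.18 FPKM, SOX13 at 4.60 to 8.68 FPKM and SOX12 at 1.95 to 4.81 FPKM, and the remaining 6 SOX genes averaged under 1 FPKM. In the family 5 genes had a positive and 5 a negative log2 difference, and 0 reached an unadjusted p under 0.05, against 10.2% of all genes.

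The FOX family had 24 measured genes, of which 7 had a positive and 17 a negative log2 difference, with a median of −0.06. That direction was not stable: 14 were positive without soft replicate 2, and 16 after a trend over GC content was removed. FOXQ1, a forkhead factor raised in many colorectal tumours, was the most abundant, at 12.47, 22.03 and 12.58 FPKM at 2 kPa and 9.96, 10.58 and 11.12 FPKM at 25 kPa. The soft libraries were all higher, with soft replicate 2 far above the other 2. The log2 difference was −0.48 (SE 0.21, limma adjusted p = 0.489, and 0.0492 before adjustment), and without soft replicate 2 it was −0.23. FOXF1, a mesenchymal factor under hedgehog control, was measured at 0.82, 0.96 and 0.75 FPKM at 2 kPa and at 0.72, 0.60 and 0.57 FPKM at 25 kPa (log2 difference −0.18, limma adjusted p = 0.735). Its groups stood apart by 0.75 against 0.72 FPKM. FOXD4L1, FOXD4L5 and FOXD4L6 are near-identical copies at 0.02 to 0.29 FPKM, and how reads were shared among them is uncertain.

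FOXM1 drives genes of mitosis and the FOXO factors drive genes of stress response and cell cycle arrest, so that known targets of both were read beside the factors themselves. FOXM1, named here after its values and those of its targets were seen, was measured at 0.22, 1.45 and 0.72 FPKM at 2 kPa and at 0.12, 0.56 and 0.17 FPKM at 25 kPa. The groups overlapped, and the log2 difference was −0.44 (limma adjusted p = 0.590, and 0.103 before adjustment). It was −0.69 without soft replicate 1 and −0.19 without soft replicate 2, with limma adjusted p = 0.437 and 0.735. FOXM1 overlaps RHNO1 and ITFG2 in RefSeq, and whether the counting used strand is not given in the sources used here. Its listed targets lay on the other side: of 20 measured of 27, all 20 had a positive log2 difference, with a median of 0.71, 16 reached an unadjusted p under 0.05 and 0 passed, where 59.6% of all genes were positive and 6.96% reached that p in this direction. KIF2C, a mitotic kinesin with the smallest p of them, was at 29.07, 26.25 and 25.01 FPKM at 2 kPa and at 49.38, 42.71 and 42.68 FPKM at 25 kPa (limma adjusted p = 0.0759). All 20 were positive in each alternative fit that kept them, and the number at an unadjusted p under 0.05 ranged from 14 to 18. The study had already reported changes in nuclear division and an activated cell cycle from these libraries. The direction of these mitotic genes is therefore not independent evidence.

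Of the FOXO factors, FOXO4 was at 3.83, 5.75 and 5.60 FPKM at 2 kPa and at 2.98, 4.12 and 3.55 FPKM at 25 kPa (log2 difference −0.41, limma adjusted p = 0.582), and FOXO6 at 0.24 to 0.94 FPKM. FOXO1 and FOXO3 were not among the genes measured. Among the listed FOXO targets, 17 of 27 were measured, 7 with a positive and 10 with a negative log2 difference and a median of −0.07, where 59.6% of all genes were positive. At an unadjusted p under 0.05 there were 3 of the 17 (17.6%), 1 higher and 2 lower at 25 kPa, against 10.2% of all genes. GADD45G, a stress gene that slows the cell cycle, was the only 1 to pass and fell from 2.48 ± 0.393 FPKM (SD, n = 3) to 0.327 ± 0.0153 FPKM (SD, n = 3), with limma adjusted p = 0.0342. It kept its direction in the 15 alternative fits and passed in 7 of them, and leaving out any library other than soft replicate 2 took its adjusted p past 0.05, to between 0.0520 and 0.234 by limma. The study had named GADD45G among its top genes from these libraries, so its fall here is not independent evidence.

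Of the 11 KLF genes, 2 had a positive and 9 a negative log2 difference, where 59.6% of all genes were positive. The KLF median was −0.34, the lowest of the 13 families in this fit. That rank depended on the pseudocount: with 0.1 the KLF median was −0.41 and that of the 2 CDX genes −0.96. By limma 0 of the 11 KLF genes reached an unadjusted p under 0.05, against 10.2% of all genes. KLF5, a factor of proliferating crypt cells and the most abundant of them, was at 13.37, 16.04 and 8.27 FPKM at 2 kPa and at 15.78, 9.91 and 11.54 FPKM at 25 kPa, a log2 difference of 0.01 (limma adjusted p = 0.996). KLF13 was at 8.66, 10.13 and 6.67 FPKM at 2 kPa and at 5.65, 6.49 and 6.49 FPKM at 25 kPa, the groups just apart, with a log2 difference of −0.38 (limma adjusted p = 0.539). The KLF genes with the largest negative differences were named after their values were seen: KLF4, which promotes differentiation in the gut, KLF2 and KLF6. KLF4 was at 4.74, 10.53 and 1.2 FPKM at 2 kPa and at 4.28, 0.62 and 2.30 FPKM at 25 kPa (log2 difference −0.79, limma adjusted p = 0.737). KLF2 was at 1.71, 2.97 and 0.46 FPKM at 2 kPa and at 0.60, 0.90 and 0.55 FPKM at 25 kPa, and KLF6 at 6.93, 18.27 and 5.49 FPKM and at 7.11, 5.53 and 6.30 FPKM. In KLF4, KLF2 and KLF6 alike, soft replicate 2 was the highest library and soft replicate 3 lay within or below the stiff range. Without soft replicate 2 the family median was −0.07, with 4 genes positive and 7 negative, and without soft replicate 3 it was −0.46, with 1 and 10. In the fit without soft replicate 3, KLF2, KLF3, KLF4 and KLF13 reached an unadjusted p under 0.05, where 8.97% of all genes did. Their limma adjusted p ran from 0.276 to 0.468. Under median centring 2 of the 11 reached an unadjusted p under 0.05, against 9.16% of all genes.

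**Figure D4:**
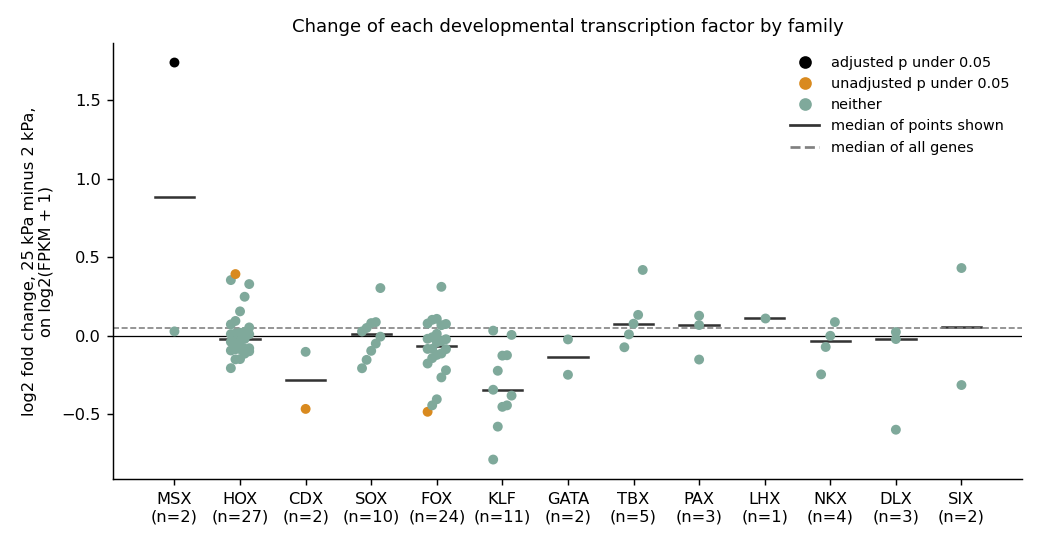
Log2 fold change between 25 kPa and 2 kPa of 96 of the 98 factors, on log2(FPKM + 1), by family, with a bar at the median of the points shown and a dashed line at the median of all genes, 0.05. MSX1 is the only black point (adjusted p under 0.05), HOXB7, CDX2 and FOXQ1 are orange (unadjusted p under 0.05), and the KLF median lies at −0.34.

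The remaining families had 1 to 5 measured genes each, and 0 of their genes reached an unadjusted p under 0.05 by limma, against 10.2% of all genes. TBX3, a T-box repressor and the most abundant of the 5 TBX genes, was at 4.82, 6.47 and 3.45 FPKM at 2 kPa and at 8.49, 5.39 and 6.63 FPKM at 25 kPa (log2 difference 0.42, limma adjusted p = 0.608). The groups overlapped through soft replicate 2, without which the difference was 0.60, with limma adjusted p = 0.413 (0.0351 before adjustment), and without soft replicate 3 it was 0.23. DLX3, a homeobox factor of skin and placenta, was at 1.22, 2.82 and 0.95 FPKM at 2 kPa and at 0.83, 0.47 and 0.77 FPKM at 25 kPa (log2 difference −0.60, limma adjusted p = 0.495). SIX5, a homeobox factor of eye and muscle, was at 4.07, 5.61 and 3.90 FPKM at 2 kPa and at 3.45, 3.53 and 3.24 FPKM at 25 kPa (log2 difference −0.31, limma adjusted p = 0.672). In both DLX3 and SIX5 the groups were apart by a small gap and soft replicate 2 was the highest library, without which the differences were −0.31 and −0.18. NKX2-3, a factor of gut mesenchyme, was listed at 0.01 FPKM, the lowest value written for any gene, in each soft library and at 0.05, 0.11 and 0.06 FPKM in the stiff libraries. Its log2 difference of 0.09 (limma adjusted p = 0.648) depended on the pseudocount, reaching 0.64 and 1.99 with 0.1 and 0.01 in place of 1, and no fold is given. NKX3-2 was at 0.43, 0.79 and 0.62 FPKM at 2 kPa and at 0.32, 0.88 and 0.67 FPKM at 25 kPa (limma adjusted p = 0.999). PAX6 was at 0.31, 0.37 and 0.40 FPKM at 2 kPa and at 0.53, 0.27 and 0.49 FPKM at 25 kPa (limma adjusted p = 0.901). LHX2 was at 0.19, 0.13 and 0.12 FPKM at 2 kPa and at 0.16, 0.23 and 0.34 FPKM at 25 kPa (limma adjusted p = 0.709). These 3 factors of eye, brain and skeleton were all under 1 FPKM in every library, and their groups overlapped.

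Genes that work with these factors were read from lists of known partners and targets. In the BMP pathway and its immediate targets, 23 of 39 were measured, 12 with a positive and 11 with a negative log2 difference and a median of 0.03, 0 passed, and 3 (13.0%) reached an unadjusted p under 0.05, all lower at 25 kPa, against 10.2% of all genes in either direction and 3.19% lower. With each library scaled to the same total, 6 of the 23 were positive. The smallest p was that of BAMBI, a decoy receptor for BMP and TGF-β ligands (log2 difference −0.65, limma adjusted p = 0.138). BAMBI was at 101.42, 114.18 and 135.8 FPKM at 2 kPa and 72.63, 79.04 and 69.4 FPKM at 25 kPa. It did not pass in any of the 15 alternative fits, and a link to MSX1 was not tested. Of the HOX cofactors with a TALE homeobox, 6 of 11 were measured and 0 passed, and MEIS3 had the smallest p, at 8.61 ± 2.84 and 11.9 ± 1.86 FPKM (SD, n = 3, limma adjusted p = 0.539). Of 81 other homeobox genes 27 were measured, 14 with a positive and 13 with a negative log2 difference, and 0 passed, the smallest p being that of LBX2 at 1.96 ± 0.293 and 1.12 ± 0.0721 FPKM (SD, n = 3, limma adjusted p = 0.444). Among other SP and intestinal transcription factors 18 of 37 were measured, 10 positive and 8 negative, and 0 passed. At an unadjusted p under 0.05 there were 5 of the 18 (27.8%), 2 higher and 3 lower at 25 kPa, against 10.2% of all genes. ASCL2, a Wnt-driven factor of intestinal stem cells, had the smallest p of these, at 24.05, 25.94 and 28.49 FPKM at 2 kPa and 11.78, 16.2 and 11.62 FPKM at 25 kPa (log2 difference −0.95, limma adjusted p = 0.0759). It passed in 1 of the 15 alternative fits, where its adjusted p was 0.0408 by limma.

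Soft replicate 2 stood apart from the other libraries in these factors. It was the highest of the 6 libraries for 53 of the 98 (54.1%), against 26.8% of all genes, and the median deviation of the factors from their own means was 0.18 in it, against 0.04 over all genes. The sums of FPKM ranged from 201030, in that library, to 263028, in stiff replicate 2. Without soft replicate 2, the median log2 difference of the factors was 0.05 against 0.08 over all genes, and 10 (10.2%) reached an unadjusted p under 0.05, 8 of them higher at 25 kPa, against 11.3% of all genes. Without soft replicate 3, 12 (12.2%) reached it, 9 of them lower, against 8.97% of all genes. MSX1 passed in each of these fits, and it was the only factor that did. The factors also had a higher GC content than the table as a whole, with a median of 56.1% against 50.1%, and after a GC trend was removed from each library their median difference was 0.02 against 0.05. The part of library composition and GC content in the smaller differences was not tested.

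**Figure D5:**
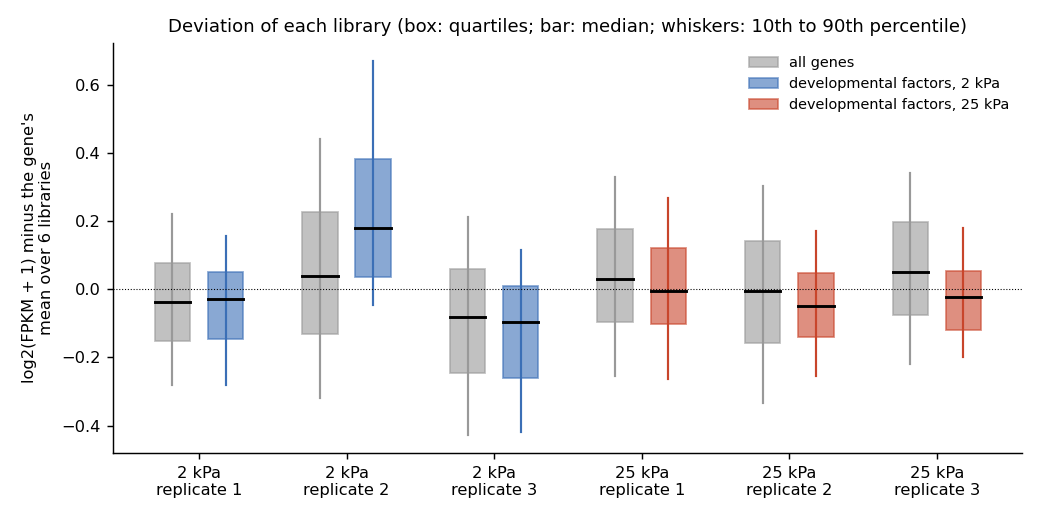
Deviation of log2(FPKM + 1) from each gene's mean over the 6 libraries, for all genes (grey) and the 98 factors (2 kPa blue, 25 kPa red), as quartile boxes with a bar at the median and whiskers from the 10th to the 90th percentile. In 2 kPa replicate 2 the factors lie at a median of 0.18 and all genes at 0.04, while in the other 5 libraries the factors' medians run from −0.10 to −0.01.

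The cells were checked against markers of their own and of other cell types. Of 14 markers of colorectal epithelium 9 were measured, and they summed to 4707 to 4987 FPKM at 2 kPa and 3827 to 5033 FPKM at 25 kPa, mostly KRT18 and KRT19, with EPCAM at 64.67 to 100.75 FPKM. Of the 9, 7 had a negative log2 difference, where 59.6% of all genes were positive, and 0 passed. At an unadjusted p under 0.05, 2 of the 9 (22.2%) were lower at 25 kPa, against 3.19% of all genes. The libraries of the groups did not overlap for 3 (33.3%), all lower at 25 kPa, against 4.78% of all genes. These were CLDN4, ELF3 and KRT19 (log2 differences −0.50, −0.70 and −0.49, limma adjusted p = 0.341, 0.352 and 0.537). Markers of fibroblasts (4 of 12 measured) summed to 0.84 to 2.22 FPKM at 2 kPa and 2.93 to 3.20 FPKM at 25 kPa, so that the groups were apart in the direction of MSX1. All 4 had a positive log2 difference, where 59.6% of all genes were positive. At an unadjusted p under 0.05, 1 of the 4 (25%) was higher at 25 kPa, against 6.96% of all genes. Most of the sum was ACTA2, which epithelial cells can also express, while PDGFRB, LUM and THY1 stayed at 0.55 FPKM or less in every library. Markers of blood cells (4 of 12) summed to 4.81 to 6.36 FPKM at 2 kPa and 3.17 to 4.65 FPKM at 25 kPa, with the groups apart in the opposite direction. Of these 4, 3 had a negative log2 difference, and 1 (25%) was lower at an unadjusted p under 0.05, against 3.19% of all genes. Those of neural cells (4 of 9) summed to 19.7 to 27.2 and 21.2 to 24.8 FPKM, and of endothelium 0 of 6 were measured. A marker that was not measured need not be unexpressed, since KRT8 of the epithelial list was also not among the genes measured. The smallest p in the other lists was that of CD14 for blood cells and CHGA for neural cells (limma adjusted p = 0.491 and 0.848), and of ACTA2 for fibroblasts (limma adjusted p = 0.421). The part of the epithelial markers and of these cell types in the values of the factors was not tested.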

How the data were processed

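RNA of SW480 cells on hydrogels of 2 kPa or 25 kPa was sequenced as 3 libraries per stiffness. The authors normalised the reads to FPKM and deposited 1 FPKM per gene symbol and library, for 8529 genes with 2 decimals. Their processing notes name HISAT, StringTie, Bowtie2, RSEM and the build hg18, without versions. The methods describe purification of small RNA, and DESeq2 for differential expression, which needs counts and was not run here. FPKM carry no read numbers at this rounding, so the reads behind each value are unknown and precision rests on the spread between libraries. The paper gives a general sequencing depth and an average file size, but no read number for each library. In the table, 11 symbols were written as dates. The table holds no value of 0, and listed genes such as KRT8, CDK1 and TOP2A are absent from it. A gene that was not measured may therefore still be expressed.

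Log2(FPKM + 1) was compared between the groups given by the labels with limma 3.58.1 in R 4.3.3 (lmFit, eBayes with a variance trend, two-sided), with Benjamini-Hochberg adjustment over all 8529 genes and a threshold of 0.05. The same-numbered libraries were checked for pairing and no block was used. Alternatives were a pseudocount of 0.1 or 0.01, removal of genes under a mean of 1 FPKM, scaling to the same total, quantile normalisation, centring on the median, no variance trend, a replicate block and leaving out each library. After seeing the data, a GC trend (lowess, span 0.3) was also removed. Scripts were tested on simulated data.

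Factors named are MSX1, MSX2, those with an adjusted or unadjusted p under 0.05, the 10 with the highest mean FPKM, the highest of each family, and those whose groups do not overlap. Of each list, the genes that passed or else the smallest p are named. The lists were targets of FOXM1 and of FOXO, the BMP pathway, HOX cofactors, other homeobox genes, SP and intestinal factors, intestinal genes, and cell type markers. The factors, lists and this rule were chosen with earlier results of these data known. All 98 symbols matched RefSeq, and 43 of the genes overlap another RefSeq gene. Sequences and positions are of GRCh38 (GENCODE 29, RefSeq GRCh38.p14) and not of the authors' build. Values of 2 of the factors are not reported here and are left out of the plots of single genes, while counts, medians and sums include them. Python 3.11.15 with pandas 2.3.3, numpy 2.4.6 and matplotlib 3.10.9 was used.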

Additional observations from a re-analysis of the deposited data

How the results depend on the processing

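MSX1 was the only developmental transcription factor past the threshold in each of the 15 alternative fits, and 14 of the 24 named factors kept their direction in every fit. The number of all genes that passed, 10 as reported, was 17 with a pseudocount of 0.1, 6 without a variance trend and 3 with the replicate block, and 3 to 11 with 1 library left out. Deviations of same-numbered libraries correlated at 0.115, −0.267 and −0.125, and those of differently numbered libraries at −0.238 to 0.294. With 3 libraries per group, these values cannot decide whether the replicate numbers paired the libraries. With the block 5 factors reached an unadjusted p under 0.05, FOXM1 among them and FOXQ1 no longer. Factors lower at that level numbered 2 as reported, 1 with genes under a mean of 1 FPKM removed, 1 without a trend, 4 with libraries scaled to the same total, 4 under quantile normalisation, 5 under median centring, and 1 to 9 with 1 library left out. Factors higher numbered 3 as reported, 6 after removal of a GC trend, and 1 to 8 with 1 library left out. In either direction, the factors' share at that level was 5.10% as reported and 4.08% to 12.2% in the alternative fits. Over all genes it was 10.2% and 7.29% to 12.3%. The factors' share was above that of all genes only without soft replicate 3. Unknown read numbers limit what can be said of factors under 1 FPKM.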
